A study of Sus scrofa with 6 samples.

Results

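Of the transcripts in this pig embryo dataset, 9 come from the mitochondrial genome's own set of respiratory genes: ND1, ND2, ND4 and ND5 of complex I, CYTB of complex III, COX1, COX2 and COX3 of complex IV, and ATP6 of complex V. They were found by the protein name of the deposited best protein match within the block of transcript identifiers of the mitochondrial genome. That block holds 13 of the 20523 rows, all of them protein-coding, and no row outside it carried one of the 13 names. The other 4 rows, ND3, ND4L, ND6 and ATP8, are given more briefly. All 9 genes passed the filter on low counts in every setting used, so none was lost.

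Messenger RNA was compared in whole embryos of the Large White breed, taken 17.5 to 18.0 days post coitum, between wild type (WT, called qq by the study) and embryos homozygous for a pair of quantitative trait nucleotides of VRTN (QQ), a gene tied to the number of thoracic vertebrae. Each group had 3 embryos with 1 library each, made with an Illumina TruSeq RNA kit. Both groups share breed, tissue and stage, and no litter, dam or batch is named, so the p-values reflect only how these 6 embryos vary. Libraries held 12207000 to 13483000 uniquely mapped reads, to the nearest 1000. WT replicate 3 stood apart on the first principal component, at -61.7 against -9.13 to 30.0 for the remaining libraries. Of 13 embryonic markers 8 had a row, and these had reads in every library. SOX2 of the neural plate stood at 26.6 to 36.3 RPKM and MEOX1 of the somites at 18.6 to 26.4 RPKM. SOX10 of the neural crest was low at 3 to 7 reads. PAX9 at 0.628 to 0.765 RPKM and NES at 1.45 to 1.70 RPKM were low too. Levels are given as RPKM, the read number scaled to transcript length and library total.

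The mitochondrial genome is a small circular DNA kept in many copies per cell. It is read from both strands as long precursor RNAs that are cut at the tRNAs lying between the genes, so its mRNAs start from shared transcripts and their levels are set further by processing and stability. Its proteins are the membrane core of the respiratory complexes, which also need subunits made from nuclear genes. Complex II is made from nuclear genes alone.

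These 9 transcripts were among the most abundant in the embryo. COX1, COX2, COX3 and ATP6 took the second to the fifth place among all rows in every library, at 6044 to 12229 RPKM. Together the 9 genes took 4.46%, 4.33% and 4.89% of all reads in the WT libraries, in replicate order, against 4.43%, 3.35% and 3.33% in the QQ libraries. QQ replicate 1 lay inside the WT range and the other two QQ embryos below it. The 95% Wilson interval was 4.88 to 4.90% for the highest and 3.32 to 3.34% for the lowest library, which covers counting error only. The group means were 4.56% ± 0.294 in WT and 3.70% ± 0.627 in QQ embryos (SD, n = 3 each).

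In the order of mean level over the 6 libraries, ATP6 came first at 9651 RPKM, followed by COX3 at 8953, COX1 at 7776, COX2 at 6969, CYTB at 2707, ND4 at 2159, ND1 at 2135, ND2 at 1663 and ND5 at 585 RPKM. ATP6 exceeded COX3, COX1 exceeded COX2 and CYTB exceeded ND4 in 5 of 6 libraries each. ND4 and ND1 could not be ordered, since ND4 was higher in 3 of 6 libraries. Reads covered 98.83 to 99.93% of each of the 9 transcripts in each library.

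**Figure D1:**
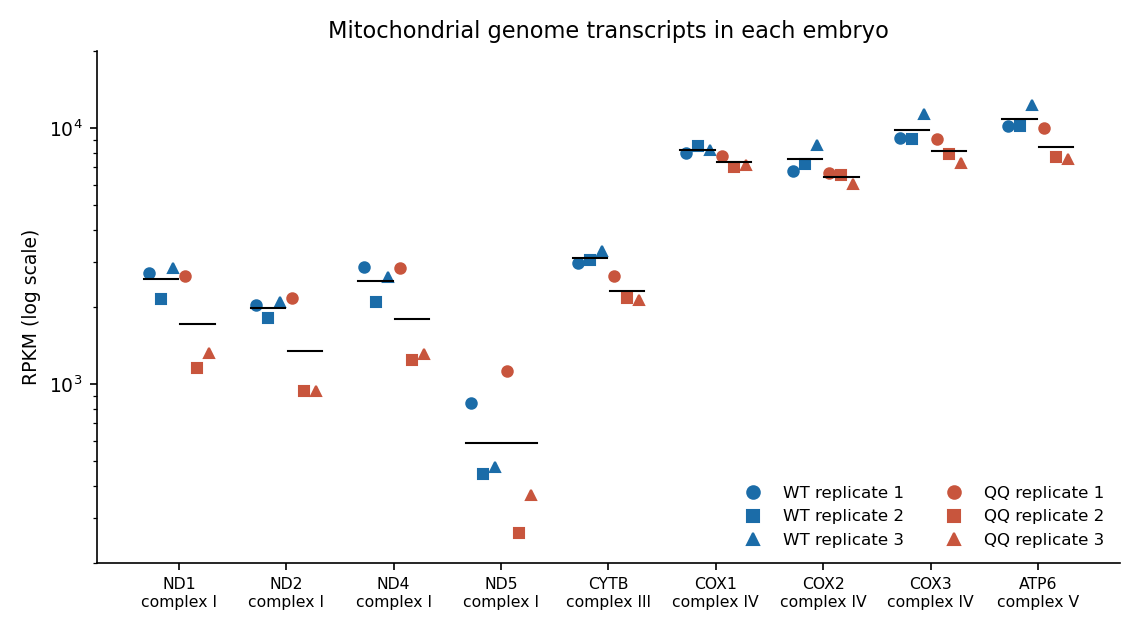
Deposited RPKM of the 9 mitochondrial genes (log axis) in each of 3 WT and 3 QQ libraries, with a bar at each group mean. For ND1, ND2, ND4 and ND5 the point of QQ replicate 1 lies with or above the WT points while QQ replicates 2 and 3 lie below them; for COX1 all 6 points lie between 7011 and 8528 RPKM.

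No mitochondrial gene passed the test between the groups, though all 9 had lower fitted values in QQ embryos. The median log2 fold change of the 9 was -0.46, beside -0.0027 over all tested rows, where 50.3% of the rows lay below 0. At an adjusted p of 0.05 edgeR's quasi-likelihood test called 0 of the 9, as it called 0.0% of the 13957 tested rows. At an unadjusted p under 0.05 it gave CYTB, ATP6, COX2 and COX3, 4 of 9, where 9.29% of all tested rows were lower in QQ at that level and 20.3% differed in either direction. DESeq2 called 0 of the 9 beside 0.795% of all rows (0.0573% lower in QQ), and limma called 0 of the 9. For limma the share of all tested rows called was not counted, so its 0 cannot be read as a result about these genes. The groups did not overlap for CYTB, COX1, COX2 and ATP6, again 4 of 9, all lower in QQ. Of all tested rows, 9.07% were lower in QQ without overlap and 18.8% were higher without overlap. The 9 transcripts come from shared precursors and are not independent of each other. In whole embryos, fewer cells rich in mitochondria and less mitochondrial RNA per cell cannot be told apart.

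CYTB, the cytochrome b of complex III that passes electrons from ubiquinol, had the smallest p of the 9. It stood at 2954, 3055 and 3308 RPKM in the WT libraries and at 2638, 2158 and 2130 RPKM in the QQ libraries. Every QQ embryo lay below every WT embryo, with the gap between QQ replicate 1 and WT replicate 1 the narrowest. The means were 3106 ± 182 and 2309 ± 286 RPKM (SD, n = 3 each). The log2 fold change was -0.52 ± 0.14 (SE; edgeR adjusted p = 0.233). With single libraries left out the log2 fold change of CYTB ran from -0.67 to -0.45.

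ATP6, the proton channel subunit of ATP synthase, stood at 10205, 10182 and 12229 RPKM in the WT libraries, against 10007, 7711 and 7570 RPKM in the QQ libraries. The groups were separate, but QQ replicate 1 came within a few percent of the lower WT embryos. The log2 fold change was -0.46 ± 0.17 (SE; edgeR adjusted p = 0.233). The ATP6 reading frame overlaps that of ATP8 and meets that of COX3, so reads at these ends could be counted for either gene.

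The complex IV genes varied less between embryos than those of complex I. COX1, the catalytic subunit of cytochrome c oxidase, stood at 7938, 8528 and 8202 RPKM in the WT libraries, against 7789, 7011 and 7186 RPKM in the QQ libraries. Its groups were separate although its highest library was only 1.22 times its lowest. COX2, which takes electrons from cytochrome c, stood at 6796, 7223 and 8577 RPKM in the WT libraries, against 6644, 6529 and 6044 RPKM in the QQ libraries. WT replicate 3 was well above all the others for COX2. COX3, a membrane subunit next to COX1, stood at 9094, 9026 and 11313 RPKM in the WT libraries, against 9060, 7910 and 7316 RPKM in the QQ libraries. For COX3 the groups overlapped by a narrow margin, through QQ replicate 1 and WT replicate 2. The log2 fold changes were -0.26 ± 0.12 for COX1, -0.33 ± 0.14 for COX2 and -0.37 ± 0.15 for COX3 (SE; edgeR adjusted p = 0.248, 0.234 and 0.234). Without WT replicate 3 those of COX2 and COX3 were -0.20 and -0.23.

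The complex I genes split the QQ group itself. ND1, which lies by the ubiquinone site where complex I's arms meet, stood at 2717, 2137 and 2837 RPKM in the WT libraries, against 2637, 1156 and 1325 RPKM in the QQ libraries. ND2, one of the proton-pumping subunits, stood at 2037, 1813 and 2090 RPKM in the WT libraries, against 2164, 939 and 936 RPKM in the QQ libraries. ND4, another pumping subunit, stood at 2872, 2089 and 2612 RPKM in the WT libraries, against 2831, 1241 and 1311 RPKM in the QQ libraries. In all 3 genes QQ replicate 1 was at the level of the WT embryos, and QQ replicates 2 and 3 were below every WT embryo. QQ replicate 1 exceeded QQ replicate 2 by 2.28-fold for ND1, 2.30-fold for ND2 and 2.28-fold for ND4, beside 1.11-fold for COX1.

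ND5, the outermost pumping subunit, was the lowest of the 9 and varied most. It stood at 838, 444 and 473 RPKM in the WT libraries, against 1123, 262 and 368 RPKM in the QQ libraries. The highest and the lowest embryo were both QQ and differed 4.28-fold, while the group means were equal, WT at 585 ± 219 and QQ at 585 ± 469 RPKM (SD, n = 3 each). WT replicate 1 was second to QQ replicate 1. On the log2 scale of TMM-scaled counts, ND5 spanned 2.20 over the 6 libraries, and 19 of the 2695 tested rows with a mean of at least 1000 reads (0.705%) spanned more. ND1, ND2 and ND4 spanned 1.48, 1.34 and 1.32, while COX1 spanned 0.42 and the median of those rows was 0.48.

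Between the genotypes the log2 fold changes were -0.67 ± 0.30 for ND1, -0.63 ± 0.32 for ND2, -0.57 ± 0.31 for ND4 and -0.061 ± 0.49 for ND5 (SE; edgeR adjusted p = 0.250, 0.274, 0.308 and 0.949). These values moved most when QQ replicate 1 was left out. Without it they were -1.18, -1.21, -1.12 and -1.02, and edgeR called ND2 lower (adjusted p = 0.0481). ND2 was itself the 1 row called lower of 14198 tested (0.00704%), with 0.0211% called in either direction. The adjusted p of ND2 ran from 0.239 to 0.574 with any other library left out. DESeq2 without QQ replicate 1, a combination added after the data were seen, called 6 of the 9 lower, ND1, ND2, ND4, ND5, CYTB and ATP6, where it called 0.514% of tested rows lower and 1.07% in either direction. It also called CYTB without WT replicate 2 (1.08% of tested rows lower, 5.96% in either direction) and without WT replicate 3 (0.0633% lower, 1.20% in either direction). Without QQ replicate 2 the values of ND1, ND2 and ND4 were -0.44, -0.41 and -0.35, and that of ND5 turned to 0.30. ND5 was also above 0 without WT replicate 1 (0.27) and without QQ replicate 3 (0.19).

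**Figure D2:**
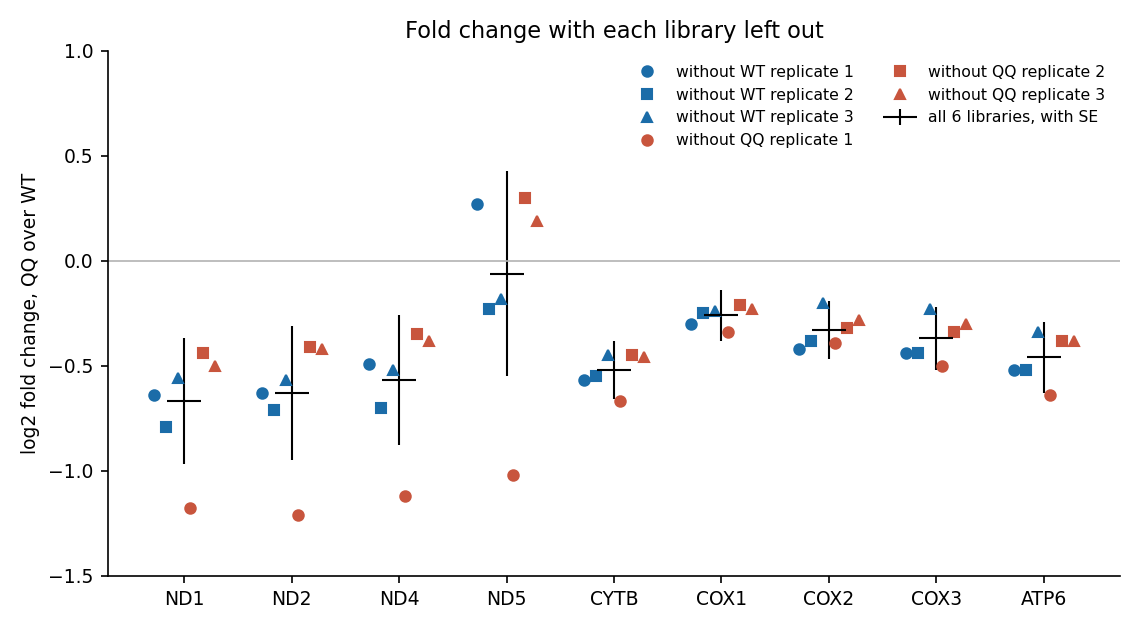
Log2 fold change of QQ over WT from edgeR for each of the 9 genes, with all 6 libraries (bar, with SE) and with each library left out (points). Leaving out QQ replicate 1 moved ND1, ND2, ND4 and ND5 to between -1.21 and -1.02, and ND5 lay on both sides of 0.

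Dividing each level by that of COX1 in the same embryo removes whatever scales all mitochondrial transcripts together. ND1 then stood at 0.342, 0.251 and 0.346 of COX1 in the WT and at 0.339, 0.165 and 0.184 in the QQ embryos. ND5 stood at 0.106, 0.0521 and 0.0577 in WT and at 0.144, 0.0374 and 0.0512 in QQ embryos. The split of the QQ embryos was thus still present relative to COX1. CYTB stood at 0.372, 0.358 and 0.403 of COX1 in WT and at 0.339, 0.308 and 0.296 in QQ embryos, with no overlap of the groups. The ratios of ND2, ND4, COX2, COX3 and ATP6 to COX1 overlapped between the groups, as did those of ND1 and ND5.

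Among the 4 complex I genes of the 9, ND1, ND2 and ND4 kept close proportions to each other and ND5 did not. ND4 over ND1 ran only from 0.921 to 1.07 over the 6 embryos, and ND2 over ND1 from 0.706 to 0.848. ND5 over ND1 ran from 0.167 in WT replicate 3 to 0.426 in QQ replicate 1, a 2.55-fold range. As a share of the reads of the 9 genes, the 4 complex I genes made up 22.9%, 17.6% and 19.1% in WT and 24.2%, 12.8% and 14.2% in QQ embryos, and the 3 complex IV genes 54.0%, 58.3% and 56.1% in WT and 53.6%, 64.2% and 63.0% in QQ embryos.

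**Figure D3:**
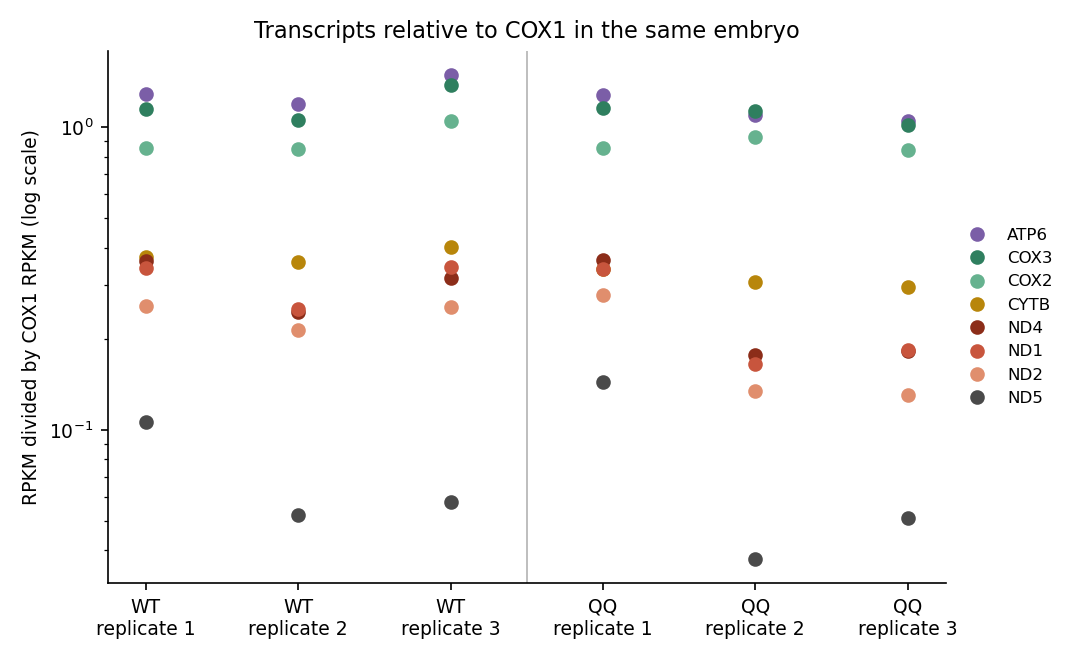
RPKM of 8 mitochondrial genes divided by the COX1 RPKM of the same library (log axis), 1 point per gene and library, without replicate error. ND1, ND2 and ND4 lie lowest in QQ replicates 2 and 3, and ND5 is highest in QQ replicate 1 at 0.144 and lowest in QQ replicate 2 at 0.0374.

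Among the remaining mitochondrial genes, those of complex I had QQ replicate 1 high as well. ND3, a small complex I subunit, stood at 2060, 1921 and 2766 RPKM in the WT libraries, against 2265, 1035 and 954 RPKM in the QQ libraries, and ND4L, another, at 1659, 1232 and 1059 RPKM in the WT libraries, against 1804, 874 and 890 RPKM in the QQ libraries. In both, QQ replicate 1 again lay with or above the WT embryos. ATP8, a small subunit of ATP synthase, stayed between 5335 and 6333 RPKM in all 6. ND6, which is encoded on the strand opposite to the rest, stood at 846, 323 and 577 RPKM in the WT libraries, against 1115, 154 and 227 RPKM in the QQ libraries, a 7.22-fold range. The embryos fell in the same order as for ND5, whose end it overlaps, and the use of strand in counting is not given in the sources used here, so reads of the 2 genes near each other cannot be told apart. The log2 fold changes were -0.75 ± 0.33 for ND3, -0.22 ± 0.29 for ND4L, -0.22 ± 0.12 for ATP8 and -0.28 ± 0.66 for ND6 (SE; edgeR adjusted p = 0.245, 0.666, 0.306 and 0.817). Without QQ replicate 1 those of ND3 and ND4L were -1.31 and -0.70, and DESeq2 then called both lower (adjusted p = 2.07e-06 and 0.0498). Of all tested rows it called 0.514% lower and 1.07% in either direction there. ND4L was at -0.024 without QQ replicate 2, at -0.037 without WT replicate 1 and at -0.039 without QQ replicate 3. The value of ND6 was -1.74 without QQ replicate 1 and turned to 0.066, 0.16 and 0.078 without WT replicate 1, QQ replicate 2 and QQ replicate 3.

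Nuclear genes of the same complexes, 72 of them tested, had log2 fold changes below 0 in 70 cases (median -0.31), where 50.3% of all tested rows lay below 0. EdgeR called 0 of them, with 35 lower and 0 higher at an unadjusted p under 0.05, beside 9.29% of all tested rows lower and 20.3% in either direction. DESeq2 called 0 of the 72 as well, beside 0.795% of all tested rows. Limma also called 0 of them, but its share of all tested rows called was not counted. The medians by complex were -0.30 over 35 genes of complex I, -0.28 over 4 of complex II, -0.34 over 9 of complex III, -0.36 over 12 of complex IV and -0.30 over 12 of complex V. NDUFA3, an accessory subunit of complex I, had means of 192 ± 35.5 RPKM (WT) and 135 ± 23.8 RPKM (QQ), and ATP5MC1, which encodes the ring subunit of ATP synthase, means of 246 ± 37.3 RPKM (WT) and 181 ± 14 RPKM (QQ), with n = 3 and the SD in each case. Their log2 fold changes were -0.60 ± 0.19 and -0.54 ± 0.15 (SE; edgeR adjusted p = 0.233 for both). NDUFA11 had -0.44 ± 0.14, SDHB and SDHC of complex II -0.32 ± 0.12 and -0.35 ± 0.11, UQCRH and UQCR10 of complex III -0.41 ± 0.17 and -0.44 ± 0.15, COX5A and COX6A2 of complex IV -0.36 ± 0.12 and -0.54 ± 0.19, and ATP5MC3 -0.39 ± 0.13. Without WT replicate 3 those of SDHB, UQCRH and UQCR10 were -0.21, -0.27 and -0.26. DESeq2 called NDUFA3, UQCR10 and ATP5MC1 lower without WT replicate 2 (adjusted p = 0.044, 0.048 and 0.0379), where it called 1.08% of all tested rows lower and 5.96% in either direction. ATP5MC1 and ATP5MC3 encode closely related proteins, and whether any of their reads were assigned to the wrong gene was not tested.

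In the nuclear genes WT replicate 3 was the highest embryo, and QQ replicates 2 and 3 again lay below QQ replicate 1, by less than in the mitochondrial complex I genes. After each gene was centred on its mean over the 6 libraries, the median of the 72 genes was 0.015, 0.058 and 0.41 in WT and -0.025, -0.20 and -0.27 in QQ embryos, in log2. For the 4 mitochondrial complex I genes it was 0.48, 0.084 and 0.49 in WT and 0.49, -0.86 and -0.69 in QQ embryos. Without WT replicate 3 the nuclear median log2 fold change was -0.19, and that of the 9 mitochondrial genes was -0.34. Whether the mitochondrial and nuclear sets differ in their response was not tested.

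**Figure D4:**
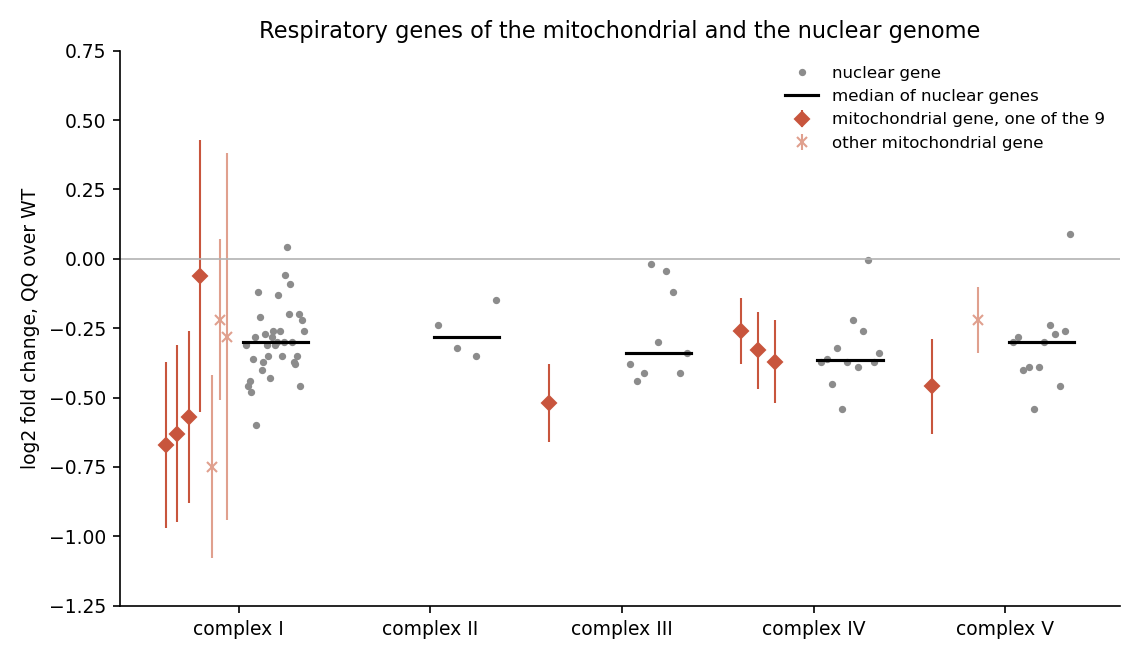
Log2 fold change of QQ over WT by respiratory complex, for mitochondrial genes (diamonds for the 9, crosses for the other 4, each with SE) and for nuclear genes (dots, with their median as a line). All 13 mitochondrial values lie below 0, those of complex I have the widest errors, and 2 of 72 nuclear genes lie above 0.

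Genes that maintain, transcribe and process mitochondrial RNA were more evenly divided. Among 23 tested genes of mitochondrial transcription and DNA maintenance, 15 had lower and 8 higher fitted values (median log2 fold change -0.075), and among 25 of mitochondrial RNA processing and stability 16 had lower and 9 higher (median -0.10). No gene of either list passed edgeR, DESeq2 or limma. Of all tested rows edgeR called 0.0% and DESeq2 0.795%, and the share for limma was not counted. At an unadjusted p under 0.05 edgeR gave 5 lower and 1 higher in the first list. In the second list it gave 0 lower and 1 higher. At that level 9.29% of all tested rows were lower and 20.3% differed in either direction. The second list, with 1 of 25, was below the latter share. SSBP1, which coats single-stranded mitochondrial DNA, had a log2 fold change of -0.37 ± 0.13, and DGUOK, a kinase that supplies its nucleotides, one of -0.43 ± 0.14. FASTK, a mitochondrial RNA-binding protein, had -0.39 ± 0.18, and PDE12, which removes poly(A) tails from mitochondrial mRNA, 0.36 ± 0.15 (SE; edgeR adjusted p = 0.233, 0.233, 0.256 and 0.234 in this order). FASTK was at -0.57 without WT replicate 2 and at -0.18 without WT replicate 3. DESeq2 called FASTK and DGUOK lower without WT replicate 2 (adjusted p = 0.0309 and 0.0394), a combination added after the data were seen. It then called 1.08% of all tested rows lower and 5.96% in either direction. With read totals as the only scaling the median of both lists together was 0.0033, beside 0.094 over all tested rows. Of 22 genes of the outer membrane, protein import and citric acid cycle, 20 had lower fitted values (median -0.25), led by the import subunit TIMM50 (-0.44 ± 0.12) and the cycle enzyme MDH2 (-0.43 ± 0.12); none passed edgeR, with 9 lower and 0 higher at an unadjusted p under 0.05, again beside 9.29% of all tested rows lower.

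The rows outside the mitochondrial genome whose pattern over the 6 libraries was most like the mean of the 9 genes were RRAS (a small GTPase), RABAC1 (a Rab-binding membrane protein), AKT2 (a kinase of insulin signalling), MFSD7 (a membrane transporter) and GPI (a glycolytic enzyme), out of 3717 named rows with a mean of at least 10 RPKM. Likeness was the root mean square difference of centred log2 CPM. These were counts scaled to library totals adjusted by TMM factors, with a prior count of 2. The difference was 0.0485 for RRAS, 0.0818 for RABAC1, 0.0962 for AKT2, 0.115 for MFSD7 and 0.123 for GPI. The 9 genes themselves lay between 0.133 (ATP6) and 0.487 (ND5) from their own mean. GPI stood at 429, 353 and 371 RPKM in the WT libraries, against 422, 292 and 268 RPKM in the QQ libraries, and RABAC1 at 164, 158 and 192 RPKM in the WT libraries, against 189, 117 and 108 RPKM in the QQ libraries. In both, QQ replicate 1 was among the higher and QQ replicates 2 and 3 were the lowest embryos. That pattern follows from choosing these rows by their likeness to the 9 genes.

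Other values also moved with the libraries. The TMM scaling factor was 1.06 and 1.05 in QQ replicates 2 and 3, 0.933 in WT replicate 3 and 0.984 to 0.989 in the remaining 3. With read totals alone the median of the 9 genes was -0.37, beside 0.094 over all tested rows. Marker sums are CPM, here counts scaled to the plain library total. Erythroid markers (14 of 18 with a row) summed to 1322 to 4528 in WT and 235 to 1973 in QQ embryos. The lowest sum was in QQ replicate 2, where HBB and ALAS2 were at 0. Hepatic and yolk sac endoderm markers (14 of 16) summed to 358 to 1281 in WT and 266 to 1933 in QQ embryos, lowest in QQ replicate 2 and highest in QQ replicate 3. Cardiac and skeletal muscle markers (12 of 20) summed to 1018 to 1368 in WT and 858 to 1027 in QQ embryos, with MYOD1 at 0 in some libraries, and trophoblast markers (8 of 11) to 130 to 155 in WT and 143 to 164 in QQ embryos, with CYP19A1 at 0 in some. HBE1 and HBZ held most of the erythroid reads. By gene, 13 of 13 tested erythroid markers had lower fitted values in QQ (median log2 fold change -0.70). For endoderm 2 were lower and 12 higher (0.31), and for muscle 8 lower and 3 higher (-0.37). Trophoblast markers had 3 lower and 3 higher (0.0086). Of all tested rows 50.3% lay below 0, and edgeR called 0.0% of them and 0 of these markers. The part of the markers and of the scaling in the mitochondrial values was not tested.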

How the data were processed

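A single deposited table holds all 6 libraries. Per the file headers, each library has 3 columns per Ensembl transcript: a count of unique reads, a coverage in percent, and an RPKM. The submitters' processing notes name the build Sscrofa10.2. Which aligner and counting program were used, and whether strand was used, is not given in the sources used here. The deposited counts are whole numbers that add up to the total in each header, with a dash read as 0, and the deposited RPKM equals the count over length and total (largest relative gap 1.29e-07). Coverage is quoted from the authors' percent columns. Reads that match the nuclear copies of mitochondrial DNA as well would not count as unique; this was not tested.

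Counts were fitted with edgeR 4.0.16 in R 4.3.3 over the whole table, with no covariate: default filter (minimum count 10, minimum total 15), TMM factors, quasi-likelihood test, Benjamini-Hochberg adjustment over all tested rows, threshold 0.05. Each SE is the log2 fold change divided by the square root of F. Alternatives were median-ratio factors, read totals, scaling without the mitochondrial rows, no filter, a mean of at least 2 RPKM, robust estimation, DESeq2 1.42.0, limma 3.58.1 on log2(RPKM + 0.5), a replicate block and leaving out each library. The test was also run on simulated counts with 200 changed rows, whose spread followed the trend over all rows. That run does not show what change the test could find in genes as variable as ND5. Group means and SDs were taken over deposited RPKM. All pairs of libraries differed by more than sampling noise (chi-square over degrees of freedom at least 8.15).

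Gene symbols came from the deposited protein and KEGG matches through a gene table of Sscrofa11.1 (9526 rows in all), 77 of these rows by the deposited description; a gene with several rows was read from the one with the most reads. Of 165 genes in 8 pathway lists 149 had a row, and of 78 markers 56. Named genes are the mitochondrial genes, the 2 tested genes of each pathway list with the smallest unadjusted p, and the 5 most similar rows. The 9 genes and the lists were chosen with earlier results of these data known, and lists were described by counts and medians without a test. Figures were drawn with matplotlib 3.10.9.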

Additional observations from a re-analysis of the deposited data

How the results depend on the processing

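The number of the 9 mitochondrial genes called was 0 with all 6 libraries under each alternative scaling, filter and test. The main edgeR fit called 0.0% of the 13957 tested rows and DESeq2 0.795%. For the other settings with all 6 libraries the share over all rows was not counted. The 0 there cannot be read as a result about these genes. With 1 library left out edgeR called 0 to 1, and DESeq2 (this pair of choices was added after seeing the data) 0 to 6: 6 without QQ replicate 1, and 1, CYTB, without WT replicate 2 and without WT replicate 3. The median log2 fold change of the 9 ran from -0.67 to -0.34 in edgeR and from -0.65 to -0.33 in DESeq2 over the left-out libraries. ND5 ran from -1.02 to 0.30 there in edgeR and from -1.0 to 0.31 in DESeq2, where leaving out WT replicate 1 gave 0.27 and leaving out QQ replicate 3 gave 0.20. ND6 ran from -1.74 to 0.16 in edgeR and from -1.73 to 0.16 in DESeq2, which gave 0.069 when WT replicate 1 and 0.083 when QQ replicate 3 was left out. Of the nuclear respiratory genes DESeq2 called 3 when WT replicate 2 was left out and 2 (NDUFA3 and NDUFA12, the latter named after its value was seen) when QQ replicate 1 was, and of the RNA and DNA machinery 2 without WT replicate 2. All were lower in QQ. Over all rows DESeq2 called 5.96% (1.08% lower) without WT replicate 2 and 1.07% (0.514% lower) without QQ replicate 1. The median of the machinery lists was 0.0033 with read totals and 0.0019 with limma. The median of all tested rows was 0.094 with read totals, against -0.0027 with TMM factors. Why the calls changed with the left-out libraries was not tested. The difference in read share, -0.856 percentage points (QQ minus WT), ran from -1.22 to -0.67 over the left-out libraries.

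The replicate number as a block left the count of called mitochondrial genes at 0 and gave a median of -0.47. The share of all rows called with the block was not counted. Same-numbered embryos deviated from their group means with correlations of -0.191, 0.213 and -0.0558 across rows, so the numbers were not taken as pairs.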
